A study of Drosophila melanogaster with 2 samples.

Results

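The genes described here are 10 Drosophila melanogaster transcription factor genes that act in neuroblasts, the neural stem cells of the fly: nub, pdm2, cas, grh, svp, dpn, SoxN, vnd, ind and zfh1. They were taken by name from 13945 protein-coding genes of the Ensembl release 115 annotation on build dm6. The rule itself uses no binding value, but the set was proposed with earlier results of these data known. Binding was read from ChIP-seq peak lists for charlatan, a zinc finger factor encoded by chn that has been likened to the vertebrate neuronal repressor NRSF/REST. Whole embryos of mixed sex, aged 0 to 24 h, came from the transgenic strain chn-GFP, in which the GFP tag is fused to the C-terminus of chn, and the precipitation used an anti-GFP antibody. The design had 1 group of 2 biological replicates from the same strain and no other condition, so no condition was contrasted. Peaks from whole embryos cannot show in which cells the factor was bound, and neuroblasts are a small part of an embryo.

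Neuroblasts of the embryonic nerve cord divide repeatedly and give rise to different neurons in order. A temporal series of factors, in which the POU proteins of nub and pdm2, the zinc finger protein of cas and the later factor of grh follow one another, sets that order, and svp encodes a nuclear receptor that closes an early window of the series. The proteins of dpn and SoxN belong to the general neuroblast and neuroectoderm programme, while vnd and ind encode homeodomain proteins that set columns along the back-to-belly axis. The gene zfh1 encodes a zinc finger homeodomain repressor that is also known from mesoderm and from motor neurons.

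Each gene was examined over its span and 5 kb to either side, about 307 kb in all. Each peak has a summit, and peaks were ranked by the deposited signal value within a list, with rank 1 the strongest. The pooled list, called on both replicates together, held 30000 summits, of which 4537 are in the set thresholded on the irreproducible discovery rate (IDR). These are called thresholded below. The others are called relaxed. The pooled list was deposited as peaks and background for input to IDR, so a relaxed summit may be background and is not by itself evidence of binding. The last thresholded rank was 4537, so the thresholded summits are the strongest 4537 of the pooled list by signal. Being thresholded thus adds nothing to the pooled rank of a single peak. Depth is unknown, because the lists carry no read counts, and a missing or weak peak cannot be told from a site below detection.

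Charlatan peaks that passed the threshold lay at 4 of the 10 genes: zfh1 with 4 summits, grh with 2, and svp and SoxN with 1 each. No thresholded summit lay within 5 kb of nub, pdm2, cas, dpn, vnd or ind. Among all protein-coding genes, 49.3% had a thresholded summit in the same window. Longer genes catch more summits, so the genes were also divided at a span of 10 kb. Of the 6 longer members (nub, pdm2, grh, svp, vnd and zfh1) 3 had a thresholded summit, against 64.9% of all genes of that length, and of the 4 shorter ones SoxN alone had one, against 46.7%. With 10 genes these shares are a description, and no test of a difference from other genes was made.

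Summits near transcription start sites (TSSs) were counted for both lists. The pooled list includes the thresholded summits, so its counts cannot be lower. A thresholded summit lay within 1 kb of a TSS at 2 of the 10 genes, SoxN and zfh1, against 24.2% of all protein-coding genes. A summit of the pooled list lay there at 10 of 10, against 60.4% of all protein-coding genes. Except at SoxN and zfh1, the members had only relaxed summits there, which may be background. These shares were not matched for gene length or number of TSSs, and 6 of the 10 members are 10 kb or longer. In the 10 windows together the pooled list held 116 summits, and 8 of them were thresholded. That is 6.90% (95% exact binomial interval 3.02% to 13.1%, counting error over summits only), against 15.1% of the whole pooled list. The interval takes summits as independent, but they cluster in 10 windows, and 4 of the 8 were at zfh1. It does not measure the spread between genes, and the difference from the whole list was not tested. The density of summits in the pooled list was 3.69 per 10 kb over the windows of the 6 longer members, against 2.39 over those of all longer genes. For thresholded summits it was 0.275 against 0.363 per 10 kb. Over the 4 shorter members the densities were 4.20 and 0.191 per 10 kb, against 3.05 and 0.595 for all shorter genes. Summed over each length class, the windows of the members thus held more pooled summits and fewer thresholded ones per 10 kb than those of all genes. The single genes did not all follow these sums. Thresholded density was above that of all genes of their length at grh, SoxN and zfh1, and below it at the other members. Pooled density was below it at cas and ind, and above it at the other members. The thresholded density of the shorter members rests on the SoxN summit alone. Densities over all genes were summed over windows that can overlap between neighbours. Some summits and bases were thus counted more than once there, whereas the windows of the members share no summit.

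**Figure D1:**
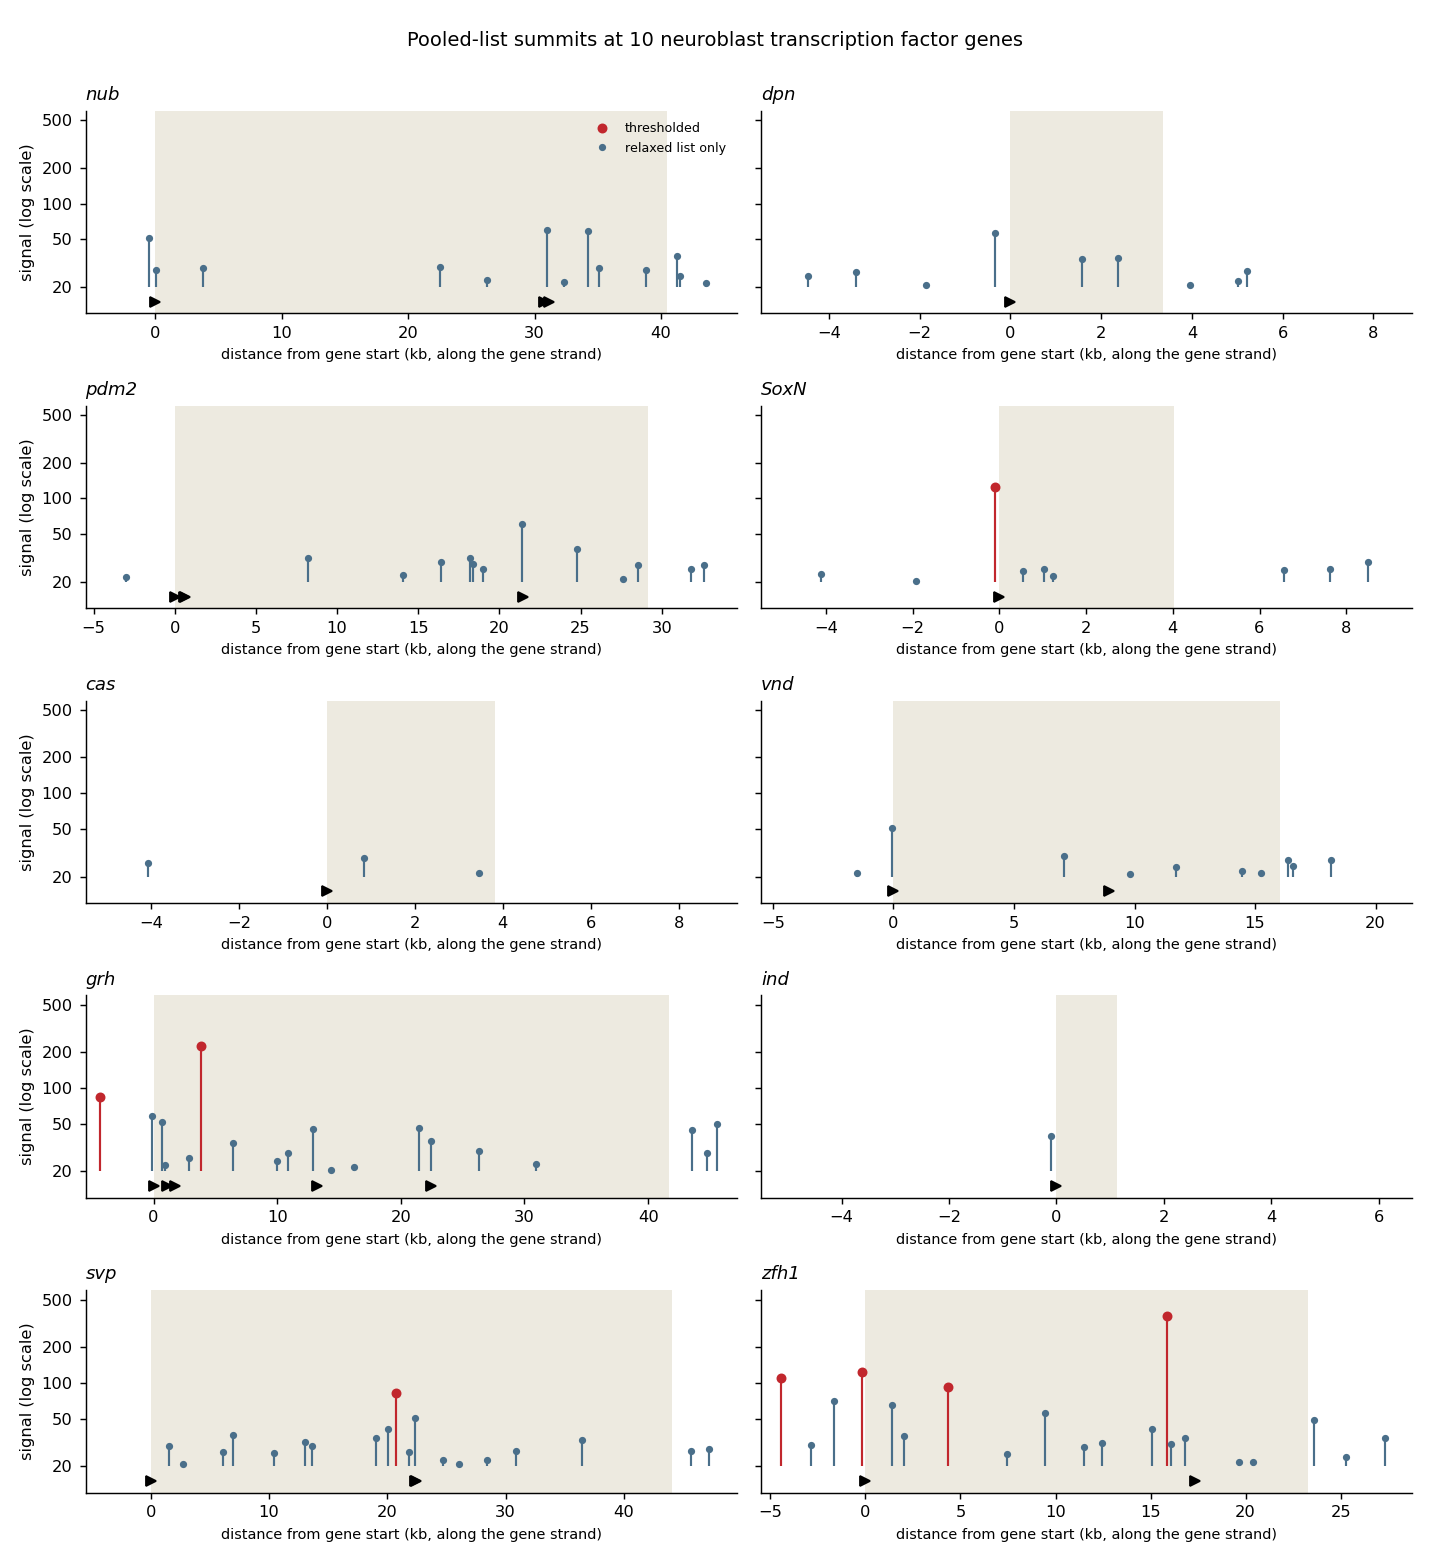
Signal value (log scale) of each pooled-list summit against its distance in kb from the start of the gene, for the 10 genes. Red points are thresholded and blue points relaxed summits, the shaded area is the gene span and black triangles mark annotated TSSs. The 4 red points at zfh1 are spread over the upstream flank, the promoter and introns, and 6 genes show blue points only.

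The reference sequence under the thresholded summits is shown because these are the sites on which the results turn, each read from the Release 6 (dm6) plus strand from 50 bases before to 50 bases after the summit. Capitals mark matches, on either strand, to any of 6 motifs: the E-box CAGCTG, the DNA replication-related element (DRE) TATCGATA, GAGAG, the N-box CACNAG, the octamer ATGCAAAT and the 7-mer ACAGTGG. The 7-mer was picked from these same peaks, so its presence is not independent. The sequences are given for the sites at zfh1, SoxN and svp.
zfh1 third-intron summit, chr3R:30781755-30781855: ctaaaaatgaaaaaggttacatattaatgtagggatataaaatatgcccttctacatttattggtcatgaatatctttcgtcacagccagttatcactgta
zfh1 promoter summit, chr3R:30765671-30765771: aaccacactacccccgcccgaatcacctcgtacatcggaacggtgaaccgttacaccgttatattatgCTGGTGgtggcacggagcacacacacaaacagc
zfh1 upstream summit, chr3R:30761414-30761514: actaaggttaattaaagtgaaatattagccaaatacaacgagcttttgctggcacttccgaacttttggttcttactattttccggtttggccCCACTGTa
zfh1 first-intron summit, chr3R:30770195-30770295: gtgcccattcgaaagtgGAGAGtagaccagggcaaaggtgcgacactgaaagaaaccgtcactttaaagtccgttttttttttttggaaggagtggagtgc
SoxN promoter summit, chr2L:8825500-8825600: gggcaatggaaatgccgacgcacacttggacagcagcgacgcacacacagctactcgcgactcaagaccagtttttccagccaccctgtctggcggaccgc
svp intron summit, chr3R:12279400-12279500: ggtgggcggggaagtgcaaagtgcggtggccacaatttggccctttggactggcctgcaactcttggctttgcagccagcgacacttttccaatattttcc

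Sequences of a pair of promoters with relaxed peaks, vnd and pdm2, are shown because a motif lies close to the summit. They were picked for this and do not stand for relaxed sites. The strongest relaxed summits of nub and cas also had a motif close by, and those of dpn and ind had none within 100 bp.
vnd promoter summit, chrX:581994-582094: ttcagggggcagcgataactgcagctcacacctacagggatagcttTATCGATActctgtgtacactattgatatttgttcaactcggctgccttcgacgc
pdm2 internal promoter summit, chr2L:12678493-12678593: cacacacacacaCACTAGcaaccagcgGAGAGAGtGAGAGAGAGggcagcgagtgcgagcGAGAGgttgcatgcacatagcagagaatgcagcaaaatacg
The vnd window holds a DRE whose bases span the summit. The pdm2 window holds 6 GAGAG matches, some of them overlapping, and 1 N-box.

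In the wider window of 100 bp to either side of the summit, GAGAG occurred at 6 of the 8 thresholded member summits, against 27.0% of all 4537 thresholded windows and 25.5% of the 24584 windows of relaxed peaks that overlap no thresholded one. Among the relaxed summits of the members it occurred at 29 (26.9%). A window with several copies counted once. The nearest GAGAG began 28 bp from the upstream grh summit and 33 bp from the first-intron zfh1 summit. At the others with a match it began 57 to 92 bp away. The E-box, the DRE and the octamer occurred at 0 of the 8. In all thresholded windows these were found in 11.3%, 4.78% and 2.12%, and in relaxed windows in 11.7%, 1.34% and 2.87%. The 7-mer was found at 1 of the 8, the zfh1 upstream summit, against 9.30% of thresholded and 4.03% of relaxed windows. The N-box was found at 1 of the 8, the zfh1 promoter summit, against 22.6% and 25.0%. The windows of the strongest member peak, in the third intron of zfh1, and of the svp peak held none of the 6 motifs. Matches describe letters in these windows and are not evidence of a bound factor.

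The gene zfh1 (FBgn0004606, chr3R:30765926-30789202, plus strand) held the strongest peak of the set and the most thresholded summits. Of all protein-coding genes of 10 kb or longer, 13.0% had 4 or more in the same window. Its strongest summit, at 30781805, had a signal of 363 and ranked 211 in the pooled list. The overlapping peaks ranked 230 in replicate 1, with a signal of 204, and 228 in replicate 2, with a signal of 153. Signals of different lists are on their own scales and only ranks can be set side by side, and the ranks of this peak were close in both replicates. It lay in an intron of 9245 bp, the third of 4, and 1453 bp upstream of the internal TSS of the gene. The annotated antisense transcript asRNA:CR45189 also spans it. The peak was narrow, with an interval of 226 bp (30781650 to 30781875) where 114 of the 116 intervals at these genes were 400 bp wide.

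The promoter summit of zfh1, at 30765721 and 205 bp upstream of the 5'-most TSS, had a signal of 124 and ranked 1982 (interval 30765521 to 30765920). It ranked 1894 in replicate 1 and 2350 in replicate 2. Farther upstream, an intergenic summit at 30761464, 4462 bp from the TSS, had a signal of 109.9 and ranked 2380, with ranks of 1940 and 3454 in replicates 1 and 2. In the first intron, of 7192 bp, a summit at 30770245 had a signal of 92.0 and ranked 3135. Its overlapping peak ranked 2632 in replicate 1 and 5103 in replicate 2, where it fell outside the strongest 4537. Distances between neighbouring thresholded summits were 4257, 4524 and 11560 bp, so the 4 are separate sites. Another 16 relaxed summits lay in the window, from rank 4609 to rank 27556. The best of them, 1631 bp upstream of the TSS with a signal of 70.7, was just below the last thresholded rank of 4537 and ranked 4398 in replicate 2 but 8227 in replicate 1. The next, in the first intron at 1378 bp from the TSS, ranked 5202, and 4056 in replicate 1 but 9577 in replicate 2. The interval of a relaxed summit at 30782004 overlapped that of the strongest peak. Replicate 2 had a summit 8 bp from it, but the nearest of replicate 1 was 202 bp away. Whether it is a separate site cannot be told from these lists. Toward the 3' end the window reaches wts, which encodes the Hippo pathway kinase Warts, and 2 relaxed summits lay inside that gene.

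Of the temporal genes, grh (FBgn0259211, chr2R:17801132-17842820, plus strand), which encodes the founding member of the Grainyhead factor family, had the strongest peak. A summit at 17804963 had a signal of 225 and ranked 613, with ranks of 474 in replicate 1 and 917 in replicate 2. It lay in the first intron (4707 bp) of 5 of its 8 transcripts, 2096 bp downstream of the nearest grh TSS, in an interval of 139 bp. A second thresholded summit, at 17796781, lay 4351 bp upstream of the gene with a signal of 84.3, at rank 3598. Its overlapping peak ranked 5811 in replicate 1 and 3638 in replicate 2. This summit lay in an exon of the antisense transcript asRNA:CR45270 and inside the gene Dhit, and its nearest protein-coding TSS, at 3911 bp, was that of Dhit, so the gene it belongs to cannot be told from these lists. The 5 annotated TSSs of grh had relaxed summits within 1 kb and no thresholded one. The strongest of these, 114 bp upstream of the 5'-most TSS, had a signal of 58.6 and ranked 5978, but its overlapping peak ranked 3959 in replicate 1 and 12728 in replicate 2. In all, the window held 17 relaxed summits with signals of 20.5 to 58.6, and the one that ranked 7478 lay 27 bp from a TSS of the neighbour olf186-M.

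The nuclear receptor gene svp (FBgn0003651, chr3R:12258737-12302785, plus strand) had 1 thresholded summit, at 12279450. Its signal was 81.8 and its rank 3767, the weakest of the 8. The overlapping peaks ranked 3296 in replicate 1 and 5744 in replicate 2. It lay in a first intron of 31357 bp, 1660 bp upstream of an internal pair of TSSs. A relaxed summit lay 1 bp from the first of that pair, with a signal of 51.0 and rank 7253, and ranked 6277 and 7296 in replicates 1 and 2. No pooled summit lay within 1 kb of the 5'-most TSS of svp. The other 17 relaxed summits of the window ranked between 9708 and 29438. Of all 19 summits, 7 had an overlapping peak in both replicate lists and 12 in 1 of them.

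The POU genes nub (FBgn0085424, chr2L:12587625-12628135) and pdm2 (FBgn0004394, chr2L:12657165-12686306) are neighbours of related sequence, both on the plus strand and 29029 bp apart, and had 13 relaxed summits each. No thresholded summit lay from the start of nub to the end of pdm2. In both genes the strongest summit was at an internal promoter. At pdm2 it lay at 12678543, 61 bp upstream of a TSS that is 21439 bp into the gene, with a signal of 61.4, at rank 5618. Its ranks of 6363 in replicate 1 and 5746 in replicate 2 were close. The second of pdm2, in the last intron at 12681959, had a signal of 38.0 and ranked 11097. At nub the strongest lay at 12618607, 176 bp upstream of a TSS 31158 bp into the gene, with a signal of 60.1, at rank 5771, and ranked 5130 and 8841 in replicates 1 and 2. Its second summit, at 12621875 in an intron, had a signal of 58.4 and ranked 6017, with ranks of 4911 in replicate 1 and 16589 in replicate 2. That part of nub is also spanned by the gene Ref2. At nub a further summit, 520 bp upstream of the 5'-most TSS, ranked 7214 with a signal of 51.2. It was among the strongest 4537 of replicate 1, at rank 4103, and no peak of replicate 2 overlapped it. At pdm2 no pooled summit lay within 1 kb of the 3 TSSs at the 5' end. The nearest thresholded summit to either gene, 18491 bp beyond the end of pdm2, was 72 bp from a TSS of spict and ranked 2829.

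The temporal factor gene cas (FBgn0004878, chr3R:5712975-5716805, minus strand) had the lowest-ranked best peak of the 10, although the median signal of its summits, 26.1, was above those of vnd (24.3) and SoxN (24.9). Its 3 relaxed summits had signals of 28.8, 26.1 and 21.3, and the strongest ranked 17274. Their deposited −log10 q-values were 0.311, 0.217 and 0.0836, where the maximum of the pooled list was 3.89. That summit lay in a coding exon, 831 bp from the TSS. Each of the 3 overlapped a peak of 1 replicate only, 2 in replicate 1 and 1 in replicate 2. The nearest thresholded summit was 19831 bp away, at the promoter of CG1236.

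**Figure D2:**
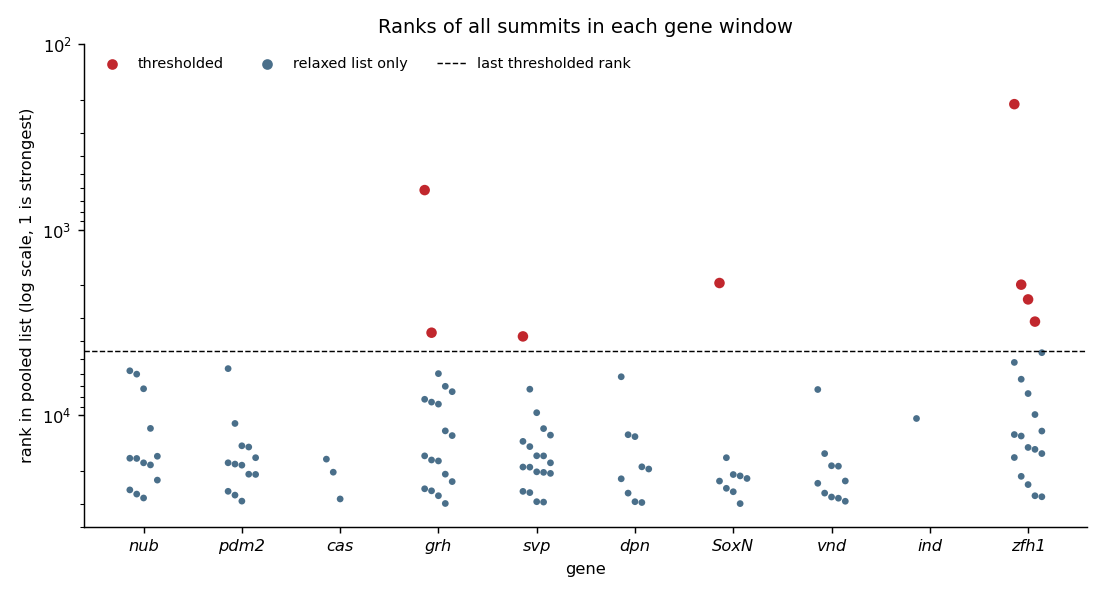
Rank in the pooled list (log scale, strongest at the top) of each of the 116 summits, by gene. Red points are thresholded and blue points relaxed summits, and the dashed line marks the last thresholded rank. The 3 summits of cas rank 17274 or weaker, and those of zfh1 reach from 211 to 27556.

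Of the genes of the general neuroblast programme, SoxN (FBgn0029123, chr2L:8825645-8829670, plus strand), which encodes a SoxB factor, had 1 thresholded summit at its promoter. It lay at 8825550, 95 bp upstream of the single TSS, with a signal of 125, at rank 1942 (interval 8825350 to 8825749). Its overlapping peaks ranked 1896 in replicate 1 and 2491 in replicate 2. No other protein-coding gene lies in the SoxN window, so this peak has no other protein-coding candidate there. Non-coding genes of the window were not listed. The other 8 summits of the window were weak, with signals of 20.5 to 29.1 and ranks of 16971 or weaker, so that a single strong peak stood out at the start of the gene. By contrast, dpn (FBgn0010109, chr2R:8228971-8232330, minus strand), which encodes a bHLH-Orange repressor of the Hes family that maintains neuroblasts, had 9 relaxed summits and no thresholded one. The strongest, 333 bp upstream of its TSS, had a signal of 57.0 and ranked 6215. It ranked 10713 in replicate 1 and 4885 in replicate 2. The second, in a coding exon at 8229952, had a signal of 34.8 and ranked 12758. A thresholded summit lay 5119 bp from dpn, just outside the window. It had a signal of 164.5, ranked 1209 and lay 178 bp from a TSS of the septin gene pnut.

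Both columnar genes had a relaxed summit just upstream of the 5'-most TSS and nothing stronger. At vnd (FBgn0261930, chrX:582121-598151, plus strand), which encodes an NK-2 class homeodomain protein, a summit 77 bp upstream had a signal of 50.9 and ranked 7281, with ranks of 8153 in replicate 1 and 7264 in replicate 2. The other 9 summits of that window ranked 16128 or weaker, and the best of them lay in the first intron at 589176. The gene spdi also spans the summits of the vnd window from 589176 onward. At ind (FBgn0025776, chr3L:15042799-15043924, minus strand), which encodes a Gsx class homeodomain protein, the only summit in the window was 93 bp upstream, with a signal of 39.7, at rank 10398. It ranked 10753 and 14607 in replicates 1 and 2, and lay inside the span of the neighbour Sytbeta. Its deposited −log10 q-value was 0.862, where the maximum of the pooled list was 3.89. The nearest thresholded summits lay 19479 bp from vnd, at the promoter of spdi, and 28683 bp from ind, at the promoter of Reck.

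The 8 thresholded summits were found in both replicates, which also served to build the thresholded set. Each overlapped a peak of both replicate lists, as did 4534 of all 4537 thresholded summits, so this is no trait of the members. The replicate summits were at most 60 bp away in replicate 1 and 51 bp in replicate 2. Among the strongest 4537 peaks of each replicate, 7 were found in replicate 1, 6 in replicate 2 and 5 in both. The same counts for the whole thresholded set are not given here. The 3 placed differently were the upstream grh summit, the svp summit and the first-intron zfh1 summit. Of the 108 relaxed summits, 43 (39.8%) overlapped a peak in both replicates, 60 in 1 replicate and 5 in neither. Over all 25463 relaxed summits 52.8% overlapped a peak in both and 4.94% in neither. The median rank was 18227 for the relaxed summits at the members and 17269 for all relaxed summits, and the part of this difference in rank in the overlap was not tested. Leaving aside the relaxed summit that overlaps the strongest zfh1 interval, 3 relaxed summits were among the strongest 4537 of replicate 1 alone (at nub, grh and zfh1). Another 2 were so in replicate 2 alone (at grh and zfh1), and 0 in both. Since a wide replicate peak can overlap neighbouring summits, 14 of the 116 shared a replicate peak with another.

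**Figure D3:**
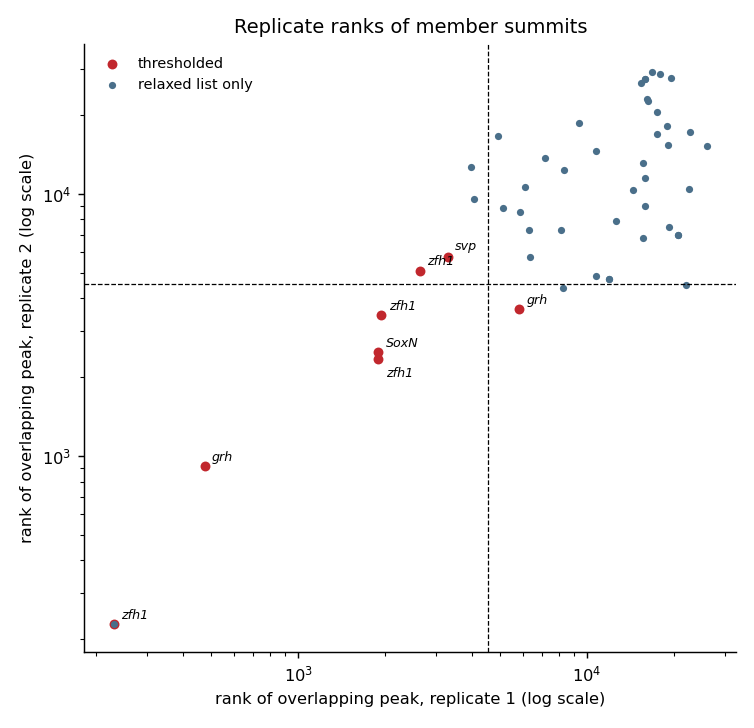
Rank of the overlapping peak in replicate 2 against that in replicate 1 (log scales) for the 51 member summits with a peak in both. Red points are thresholded, named by gene, and blue points relaxed; dashed lines mark rank 4537. The blue point on the strongest zfh1 point is the relaxed summit whose interval overlaps that of the strongest peak. The other red points lie to the lower left except those of svp, zfh1 and grh that cross 1 line.

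The summits differed in place as well as in strength. Of the 8 thresholded summits, 2 lay in promoters (within 500 bp of a protein-coding TSS), 4 in introns, 1 in a non-coding exon and 1 between genes. In the whole thresholded set 51.7% were in promoters, 31.0% in introns and 13.8% between genes. Of the 108 relaxed summits at the members, 13.9% were in promoters, 46.3% in introns, 16.7% in coding exons and 18.5% between genes, against 22.8%, 36.8%, 15.4% and 19.8% of all relaxed summits. Coding exons held 0 thresholded and 18 relaxed summits at these genes, and the 18 ranked 12733 or weaker. Of the 17 promoter summits, 7 were at the 5'-most TSS of a member, 7 at an internal TSS and 3 at another gene. The 10 genes have 23 annotated TSSs, of which 19 had a pooled summit within 1 kb and 2 a thresholded one. The 2 were the single TSS of SoxN and the 5'-most TSS of zfh1, and no internal TSS of the 13 had a thresholded summit within 1 kb.

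**Figure D4:**
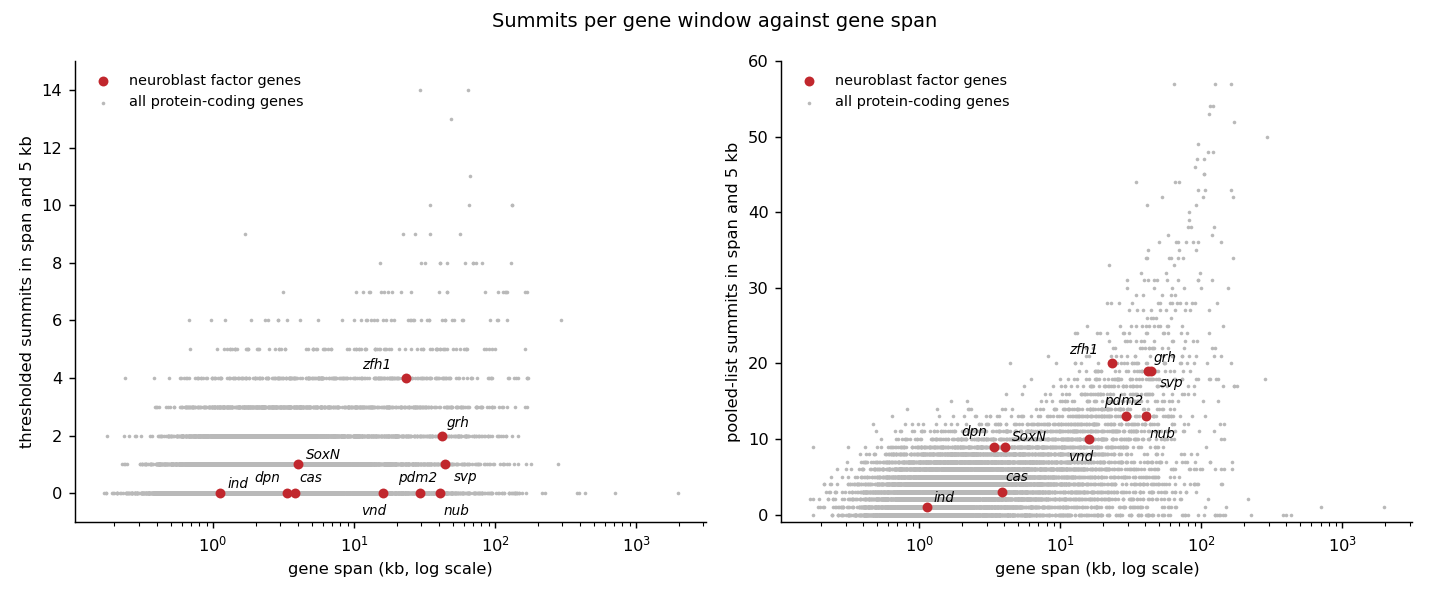
Number of thresholded (left) and of pooled-list (right) summits in the span and 5 kb of each gene, against gene span (log scale). Red points are the 10 neuroblast factor genes, with names, and grey points all protein-coding genes; 3 and 6 genes lie above the left and right axes. The gene zfh1 has 4 thresholded and 20 pooled summits, the highest of the 10 in both panels.

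Other neural precursor genes were counted for context, from a list of 26 that was chosen with earlier results of these data known. A thresholded summit lay in the window of 14 of the 26, and 40 of their 313 pooled summits (12.8%) were thresholded, against 15.1% of the whole list. Of the 12 longer genes 9 had one, against 64.9% of all longer genes, and of the 14 shorter ones 5, against 46.7%. The highest counts were at hth (10 summits), the translational repressor gene brat (7) and insc (4), which encodes a protein of asymmetric division, followed by the neural fate gene pros (3). Those with 2 were ey, slp1, slp2, Imp, chinmo and br, and those with 1 were Dr, opa, esg and sqz. The strongest peak was 4315 bp upstream of slp2, a forkhead gene, at rank 94. The sqz peak, at rank 264, lay 79 bp from a TSS of CG42359, and both br peaks, 1 of 2 at ey, 3 of 7 at brat, 2 of 3 at pros and 1 of 4 at insc were nearer to a TSS of another gene. The early temporal genes hb and Kr, the Sox gene D and the neuroblast genes ase, wor, klu and mira had none. Neither had sna, tll, scro, nab and Syp. Just under the threshold were the best peaks of Kr (rank 4586), ase (4724) and D (4755).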

How the data were processed

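Peak lists of 2 biological replicates, of their pool and of the IDR-thresholded set were used on build dm6. Per the deposited inventory, each replicate and the pool had peaks called against a control, which was not analysed here, and the thresholded set derives from those lists. Names of the aligner and the peak caller were not given in the sources used here. Per the labels, chromatin was sonicated to fragments of 200 to 800 bp. The authors' signal value of each peak comes from the peak caller, with no stated scaling for depth, and was used only to rank peaks within a list. The deposited −log10 q-value reached its maximum of 3.89 in 3851 of 30000 pooled peaks, so it was not used for ranking. The dm3 lists were not used here, and no position was converted.

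Positions were set against Ensembl release 115 and the Release 6 genome of RefSeq, whose spans of the 10 genes were the same and whose arm lengths contained all peaks. Transposable elements were left out. A replicate peak counted as overlapping from 1 bp, and the strongest was taken. Summits were classed, in this order of priority, as promoter (within 500 bp of a protein-coding TSS), UTR or coding exon, other exon, intron, or intergenic. The members and lists were chosen with earlier results of these data known. All 10 members are named, with every thresholded summit and the strongest relaxed ones, and the sequences of vnd and pdm2 were picked after their motifs were seen. The summits are a description: no comparison between groups or test was made, since there is 1 group. Alternatives were other window sizes and TSS distances, a stricter set, each replicate alone, and closer or stronger replicate peaks. Counting was checked on simulated windows with planted summits. Python 3.11.15, numpy 2.4.6, pandas 2.3.3, scipy 1.17.1 and matplotlib 3.10.9 were used.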

Additional observations from a re-analysis of the deposited data

How the results depend on the processing

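The counts follow the window. With the gene span alone, 4 thresholded and 75 pooled summits were counted in place of 8 and 116, and with 10 kb on each side there were 14 thresholded summits, at 5 genes, dpn among them. With the 1000 strongest peaks as the thresholded set, 2 summits at 2 genes remained (1.72% of the pooled summits), those of rank 211 at zfh1 and rank 613 at grh, and 0 genes had one within 1 kb of a TSS. With the strongest 4537 peaks of a single replicate in place of the thresholded set, 3 to 5 genes had a summit in the window, 8 to 10 summits were counted of 102 to 114 in that replicate's list (7.84% to 8.77%), and 2 to 4 genes had one within 1 kb of a TSS. The genes were grh, SoxN and zfh1 with either replicate, with svp and nub added for replicate 1. Of the 8 thresholded summits, 5 overlapped one of the strongest 4537 peaks in both replicates. Counting each window on its own and 2 kb flanks left each count within 1.5 times. Windows of members share no summit. No paired analysis was possible because there is 1 group. The lists carry no read counts, so neither depth nor the control signal at these genes could be weighed.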

Other observations

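The base composition of the thresholded windows differed widely between the sites. Within 100 bp of the summit the GC content was 60.2% at the SoxN promoter, 57.2% at the zfh1 promoter and 53.2% in the svp intron. It was 45.8% at the first-intron and 38.3% at the upstream zfh1 summit. The strongest zfh1 summit and the upstream grh summit had 34.3% each, and the strongest grh summit 31.3%. The 8 windows averaged 44.3%, against 38.8% over all thresholded windows, and the relaxed windows of the same genes averaged 48.7%, against 45.7% over the relaxed windows that overlap no thresholded peak. The strongest peaks of the set, in the third intron of zfh1 and the first intron of grh, were AT-rich, and each had an interval narrower than 400 bp. The upstream grh peak, at rank 3598 only, was as AT-rich as that of zfh1. These are values of 8 sites and were not tested.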
